A study of Mus musculus with 12 samples.

Results

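The 27 genes described here handle cholesterol in the liver cell, and they were selected by symbol from the 38926 gene symbols counted in each library. Of these, 17 encode enzymes of cholesterol synthesis and 10 encode proteins that take up, move, store or export cholesterol. A gene was kept if it had 10 or more reads in at least 3 of the 12 samples. All 27 met this condition in every sample, the fewest reads being 102, for Abcg1. All 27 also passed the filter on low counts that left 14488 genes for testing.

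Liver cells build cholesterol from acetyl-CoA through mevalonate, farnesyl diphosphate, squalene and lanosterol. When sterols in the endoplasmic reticulum run low, SREBP-2 (encoded by Srebf2) is released from its membrane and activates the genes of the synthesis enzymes and of the LDL receptor. Surplus cholesterol is esterified, converted to bile acids, or exported, with ABCG5 and ABCG8 forming the transporter that secretes sterols into bile, and oxysterol-activated liver X receptors induce several of the exporters.

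Poly(A) RNA was sequenced from the livers of 12-week-old male mice on a mixed 129Ola/C57BL6 background, kept in a 12 h light and 12 h dark cycle with free access to food. Of the 4 groups of 3 samples, 2 were wild-type and 2 were Rev-erbα-/- (labelled Rev KO). Each genotype was sampled at ZT8 and at ZT20, that is 8 h and 20 h after lights on. Each sample is taken here as a separate mouse, which the labels do not state. The knock-out of Nr1d1, which encodes the clock repressor REV-ERBα, is present in the whole animal and not only in hepatocytes, and no animal received a drug. The comparisons ask how the genotypes differ at ZT8 and at ZT20, whether that difference depends on the time, and how each genotype differs between the times.

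The libraries held 17641809 to 26060192 reads on genes, so that 3 reads corresponded to 0.117 to 0.167 CPM (reads scaled to the TMM-adjusted library size). Reads on Nr1d1 remained in the knock-outs, at 63.0, 71.9 and 80.6 CPM against 129, 96.2 and 75.3 in wild-type at ZT8, and 2.09 to 3.57 against 1.86 to 2.28 at ZT20, and since the deleted part is not given in the labels, this count does not check them. Arntl, which REV-ERBα represses, separated the genotypes at ZT8, with 22.7 to 25.7 CPM in Rev-erbα-/- against 0.448 to 0.796 in wild-type. At ZT20 it overlapped, with 41.1 to 45.1 CPM in Rev-erbα-/- against 43.0 to 45.2 in wild-type. Neither gene therefore checks the genotype labels at ZT20. The 7 hepatocyte markers, Alb and Ttr among them, summed to 60223 to 110805 CPM, whereas the 6 listed Kupffer cell markers, of 7, summed to 237 to 434 CPM. Some marker sums moved with the groups. At ZT8 the 4 cholangiocyte markers summed to 4.83 to 7.44 CPM in wild-type mice against 9.97 to 15.5 in the knock-outs. The 4 markers of pancreatic acinar cells summed to 26.6 to 29.5 CPM against 44.9 to 60.6. Of these, Prss1 and Cpa1 had no reads, so Cela1 and Cela2a made up the whole sum. Hepatocyte markers in wild-type mice summed to 60223 to 82772 CPM at ZT8 and 100422 to 110805 CPM at ZT20. The part of these shifts in the results was not tested. In 2 libraries, replicates 2 and 3 of wild-type at ZT8, the 9 acute-phase transcripts (Saa1, Orm1 and others) summed to 22778 and 28433 CPM, against 6054 to 7899 CPM in the other 10. These 2 mice form most of the wild-type ZT8 group, and the member calls that use it are therefore also given without them, which leaves 1 wild-type mouse at that time, whose spread is assumed to be that of the other groups.

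The promoters of several members are shown first because they include the genes with the steepest differences between the times. RefSeq start sites (GRCm38.p6, the build of the read counts) gave windows of 250 bases before to 50 bases after the start for 19 of the 27 genes. In the lines below, read 5′ to 3′ on the strand of the gene, capitals mark CCAAT or its complement ATTGG, the motif bound by NF-Y, and the 9 bases TCACCCCAC, which match TCACNCCAC, the core of the sterol regulatory element. The windows are chr13:119690101-119690400 (plus strand) for Hmgcs1, chr3:89454291-89454590 (plus) for Pmvk, chr8:122443373-122443672 (minus) for Mvd, chr10:76531355-76531654 (plus) for Lss, chr19:6067801-6068100 (minus) for Tm7sf2, and chr17:84682871-84683170 (plus) for Abcg8. Pmvk and Abcg8 each have another window that is not shown, chr3:89459321-89459620 and chr17:84676052-84676351. Neither of these holds CCAAT or TCACNCCAC.
Hmgcs1: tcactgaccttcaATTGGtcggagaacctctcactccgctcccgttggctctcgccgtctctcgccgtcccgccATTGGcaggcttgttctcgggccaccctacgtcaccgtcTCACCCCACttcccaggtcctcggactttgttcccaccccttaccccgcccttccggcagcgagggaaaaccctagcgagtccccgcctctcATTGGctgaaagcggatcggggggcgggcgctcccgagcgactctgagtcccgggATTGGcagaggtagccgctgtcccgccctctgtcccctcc
Pmvk: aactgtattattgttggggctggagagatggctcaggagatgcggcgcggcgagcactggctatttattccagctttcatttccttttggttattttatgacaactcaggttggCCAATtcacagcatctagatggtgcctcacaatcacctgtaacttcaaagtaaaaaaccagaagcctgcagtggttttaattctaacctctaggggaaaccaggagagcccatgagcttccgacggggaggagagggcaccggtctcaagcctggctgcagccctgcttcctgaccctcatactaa
Mvd: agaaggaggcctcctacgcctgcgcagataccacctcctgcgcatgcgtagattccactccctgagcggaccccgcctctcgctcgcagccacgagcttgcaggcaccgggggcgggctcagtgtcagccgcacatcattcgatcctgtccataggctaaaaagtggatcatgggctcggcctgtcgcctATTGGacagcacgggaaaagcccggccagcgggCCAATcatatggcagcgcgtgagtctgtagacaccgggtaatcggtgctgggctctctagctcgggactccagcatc
Lss: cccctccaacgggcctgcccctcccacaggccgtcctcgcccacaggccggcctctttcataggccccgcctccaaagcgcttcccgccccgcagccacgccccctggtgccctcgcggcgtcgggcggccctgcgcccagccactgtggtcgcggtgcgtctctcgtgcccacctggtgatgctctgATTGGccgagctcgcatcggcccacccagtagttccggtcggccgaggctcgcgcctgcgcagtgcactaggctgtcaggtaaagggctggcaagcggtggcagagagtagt
Tm7sf2: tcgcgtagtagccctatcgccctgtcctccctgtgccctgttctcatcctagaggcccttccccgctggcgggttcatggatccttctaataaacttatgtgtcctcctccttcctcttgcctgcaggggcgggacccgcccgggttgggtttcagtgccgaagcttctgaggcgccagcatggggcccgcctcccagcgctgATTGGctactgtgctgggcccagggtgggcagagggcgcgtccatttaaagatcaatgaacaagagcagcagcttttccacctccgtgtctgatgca
Abcg8: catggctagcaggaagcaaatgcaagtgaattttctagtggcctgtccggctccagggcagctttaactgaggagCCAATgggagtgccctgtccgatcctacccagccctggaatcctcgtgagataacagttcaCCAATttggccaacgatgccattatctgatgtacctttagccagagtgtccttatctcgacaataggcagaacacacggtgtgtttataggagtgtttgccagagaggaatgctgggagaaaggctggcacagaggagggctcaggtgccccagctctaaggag
The Abcg8 window shown holds the start sites of both transporter subunits, which run in opposite directions from positions 141 (Abcg5, chromosome 17, 84683011) and 251 (Abcg8, 84683121), 110 bases apart. Among the 32851 windows of the whole table, searched on both strands, 37.4% held CCAAT, 35.7% held the Sp1 motif GGGCGG and 1.24% held TCACNCCAC. The 14 synthesis genes with a match had 17 windows, of which 13 (76.5%) held CCAAT, 13 (76.5%) held GGGCGG and 1, of Hmgcs1, held TCACNCCAC, 137 bases before its start. The 5 transport genes had 6 windows, of which 4 held CCAAT, 1 of Abcg5 and 1 of Abcg8 among them, 3 held GGGCGG and 0 held TCACNCCAC. The Abcg5 window overlaps the Abcg8 window shown, and its CCAAT site lies in both, so these hits are not separate. These counts describe letters in 300 bases and not binding.

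Per length of exon sequence, the members spanned a wide range. In wild-type liver at ZT8, the highest levels on the RPKM scale (CPM per kilobase of exon) were those of Ebp, the sterol isomerase, at 86.4, Hmgcs1, the HMG-CoA synthase, at 64.0, Abcg8 at 58.7 and Abcg5 at 53.6. The lowest were 1.18 RPKM for Abcg1, 1.48 for Ggps1 and 1.63 for Idi1. At ZT20 the order differed, with Hmgcs1 at 173 and Pmvk at 101 RPKM in wild-type, against 18.5 for Abcg5 and 18.2 for Abcg8. Exons of 11 members overlap those of another gene. In 4 of the 27 (Acat2, Idi1, Fdps and Fdft1) more than 20% of all 75-base stretches also occur in another gene or pseudogene. Reads there were ambiguous or not unique, so the levels of these 4 genes are less certain.

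At ZT8, transcripts of the synthesis enzymes had a higher mean level in the knock-outs in 17 of 17 genes, but only Tm7sf2 passed the test (edgeR quasi-likelihood, adjusted p below 0.05). The 1 of 17 members called higher (0 lower) compares with 4.4% of all tested genes called higher, 4.04% called lower and 8.45% called in either direction. The median log2 fold change of the 17 was 0.34, with a range of 0.10 to 0.86, against 0.00 over all tested genes. Without the 2 acute-phase mice the median was 0.22, 15 of 17 values were above 0, those of Mvk and Pmvk were -0.015 and -0.019, and none passed (smallest edgeR adjusted p = 0.418). In these bulk samples, fewer cells of a type and less RNA per cell cannot be told apart.

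Tm7sf2 encodes a sterol C14-reductase that acts after lanosterol. It was at 145, 129 and 110 CPM in wild-type mice and at 164, 168 and 188 CPM in Rev-erbα-/- mice at ZT8. All knock-outs lay above all wild-type mice. The log2 fold change was 0.44, with a standard error (SE) of 0.10 (edgeR adjusted p = 0.0160), or 1.35-fold. Without the 2 acute-phase mice it was 0.26 (edgeR adjusted p = 0.418), and leaving out either of them alone also ended the call (edgeR adjusted p = 0.0639 without replicate 2 and 0.0700 without replicate 3), as did leaving out replicate 3 of the knock-outs at ZT8 (edgeR adjusted p = 0.0525). About 12.1% of its exon bases overlap Vps51 on the same strand.

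Squalene epoxidase, Sqle, had the next smallest p-value. It was at 110, 109 and 108 CPM in wild-type and at 178, 169 and 154 CPM in Rev-erbα-/- liver at ZT8. The genotypes were separate, and the wild-type values were nearly equal, yet the log2 fold change of 0.61 did not pass (SE 0.18, edgeR adjusted p = 0.0637) in a fit whose spread is shared with ZT20, where Sqle ranged from 156 to 299 CPM in wild-type. The gene passed in 4 of 21 other settings, among them the fit to the 6 ZT8 mice alone (edgeR adjusted p = 0.00242) and DESeq2 (adjusted p = 0.00656). Without the acute-phase mice it was 0.59 (edgeR adjusted p = 0.478). In all, 10 of the 17 genes had groups that did not overlap at ZT8, beside 25.6% of all tested genes, and 7 had an unadjusted p under 0.05, beside 23.5%. An exact permutation test of 3 against 3 mice gives 0.1 at best, so that it cannot reach 0.05.

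Among the enzymes that lead from acetyl-CoA to farnesyl diphosphate, Hmgcs1 ranged from 219 to 375 CPM in wild-type and from 316 to 653 CPM in Rev-erbα-/- liver at ZT8, with overlap (log2 fold change 0.66, edgeR adjusted p = 0.242). Idi1, the isopentenyl diphosphate isomerase, gave the highest log2 fold change of the synthesis genes, 0.86, but 1 mouse carried it. Its level was 5.69, 5.73 and 5.69 CPM in wild-type and 17.9, 6.67 and 6.56 CPM in Rev-erbα-/- (edgeR adjusted p = 0.175). Without that knock-out mouse, replicate 1, it was 0.21 (edgeR adjusted p = 0.48). DESeq2 called 3 synthesis genes higher at ZT8, Tm7sf2, Sqle and Idi1, beside 1503 of 14488 tested genes called in either direction. Leaving out replicate 3 of wild-type at ZT20 gave 5 calls, Tm7sf2 with Sqle, Lss, Cyp51 and Nsdhl, beside 1244 of 14748. That mouse is in neither ZT8 group and enters through the filter, the scaling and the shared spread.

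**Figure D1:**
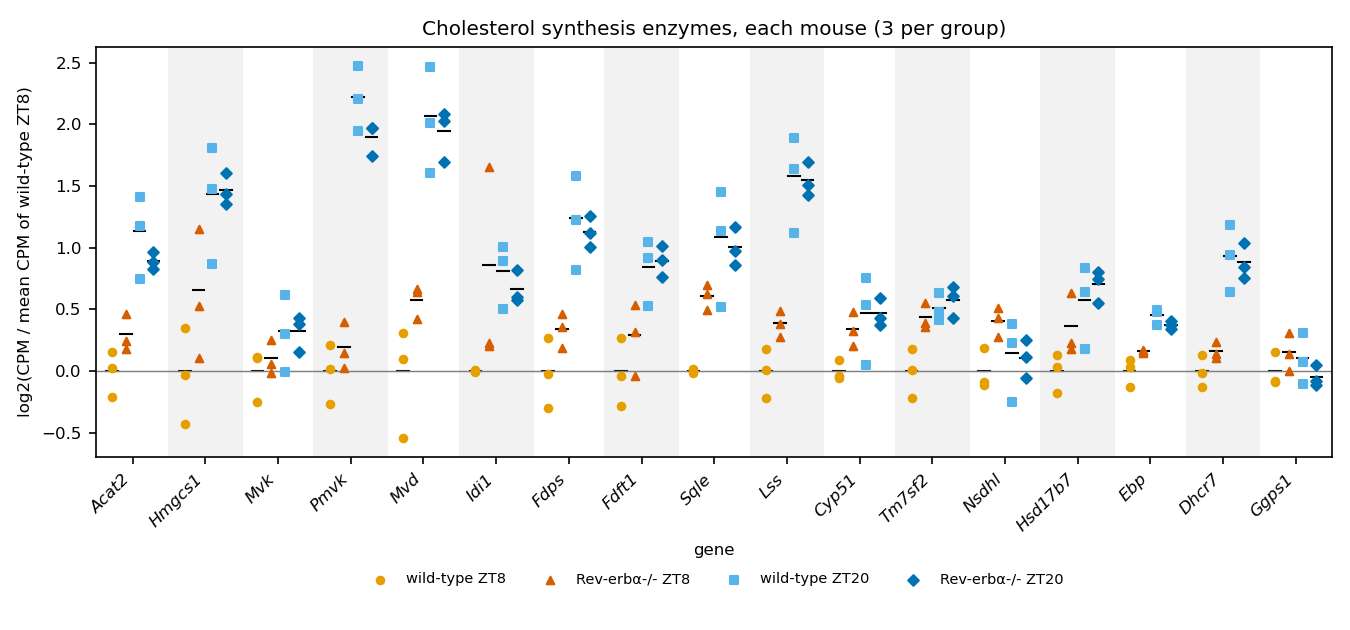
Each point is 1 mouse, plotted as log2 of its CPM over the mean CPM of wild-type at ZT8 for the 17 synthesis genes, and dashes are group means on the same scale (3 mice per group). Both ZT20 groups lie far above both ZT8 groups for Pmvk, Mvd and Lss, and 1 Rev-erbα-/- mouse at ZT8 stands apart for Idi1.

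In wild-type liver, the time of day was associated with much larger differences. Transcripts of 13 of the 17 synthesis enzymes rose from ZT8 to ZT20 and 0 fell, beside 13.8% of all tested genes called higher, 13.9% called lower and 27.7% called in either direction. The median log2 fold change of the 17 was 0.85, against 0.00 over all tested genes. The steepest rises were those of Pmvk (phosphomevalonate kinase) and Mvd (mevalonate diphosphate decarboxylase), neighbours in the mevalonate pathway, and of Lss, which closes squalene epoxide into lanosterol.

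Pmvk was at 42.9, 37.5 and 30.8 CPM at ZT8 and at 206, 171 and 143 CPM at ZT20 in wild-type liver. The log2 fold change was 2.22 (SE 0.16, edgeR adjusted p = 8.06e-07). Mvd went from 19.3, 16.7 and 10.7 CPM to 85.9, 62.8 and 47.4 CPM, a log2 fold change of 2.06 (edgeR adjusted p = 0.000325). For both genes the lowest mouse at ZT20 lay well above the highest at ZT8. Lss went from 83.6, 74.2 and 63.5 CPM to 273, 229 and 161 CPM, a log2 fold change of 1.58 (edgeR adjusted p = 3.83e-05).

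The other 10 genes that rose in wild-type liver had log2 fold changes from 0.45 to 1.43. They were, in pathway order, Acat2 (1.14), Hmgcs1 (1.43), Fdps (1.24), Fdft1 (0.85), Sqle (1.08), Cyp51 (0.47), Tm7sf2 (0.51), Hsd17b7 (0.58), Ebp (0.45) and Dhcr7 (0.94). The 4 that did not pass were Mvk, the mevalonate kinase (0.32, edgeR adjusted p = 0.124), Idi1 (0.81, adjusted p = 0.119), Nsdhl, a sterol C4-demethylase subunit (0.14, adjusted p = 0.509), and Ggps1, which makes geranylgeranyl diphosphate on a side branch (0.11, adjusted p = 0.605). Mvk sits between Hmgcs1 and Pmvk in the pathway, and it was at 25.9 to 33.2 CPM at ZT8 and 30.6 to 47.0 CPM at ZT20. Without the 2 acute-phase mice, which leaves 1 wild-type mouse at ZT8, the median was 0.80 and 16 of 17 values were above 0. The log2 fold changes of Hmgcs1, Fdft1, Sqle, Cyp51, Tm7sf2 and Hsd17b7 were then 0.33 to 1.08. Calls of these genes were not kept with that 1 mouse.

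In Rev-erbα-/- liver, 7 synthesis genes rose from ZT8 to ZT20 and 0 fell, beside 8.79% of all tested genes called higher, 8.67% called lower and 17.5% called in either direction. The median log2 fold change of the 17 was 0.40. The 7 were Acat2 (0.59), Pmvk (1.70), Mvd (1.37), Fdps (0.79), Fdft1 (0.61), Lss (1.16) and Dhcr7 (0.72), and each was also called in wild-type. Pmvk was at 48.8, 40.9 and 37.7 CPM at ZT8 and at 124, 145 and 145 CPM at ZT20 in these mice (edgeR adjusted p = 2.07e-05). Cyp51, Ebp, Hmgcs1, Hsd17b7, Sqle and Tm7sf2 passed in wild-type and not in Rev-erbα-/-, where their log2 fold changes were 0.13, 0.21, 0.81, 0.34, 0.40 and 0.14. The interaction, described with the genotype comparisons, was not called for any of these 6 genes, so a difference between the genotypes is not shown. Without either replicate 2 or replicate 3 of the knock-outs at ZT8, 4 genes passed, with Acat2, Fdps and Fdft1 lost (edgeR adjusted p = 0.0510 to 0.110). All tested genes called then numbered 1663 of 14741 and 2202 of 14765, in either direction.

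**Figure D2:**
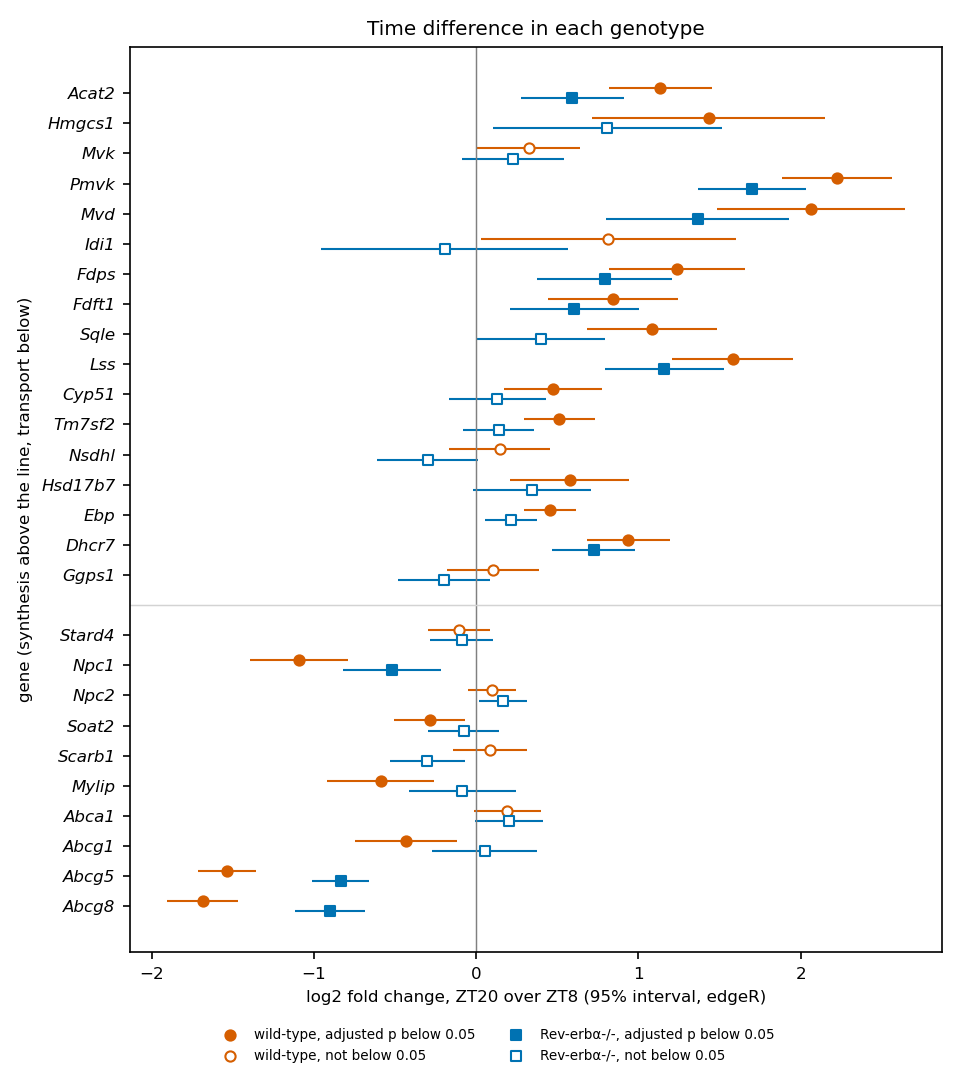
Log2 fold change of ZT20 over ZT8 for each gene in livers of either genotype, with 95% intervals from the edgeR fit and filled markers where the adjusted p was below 0.05. In wild-type, 13 synthesis genes lie to the right and 6 transport genes to the left with filled markers, and in Rev-erbα-/- 7 and 3.

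At ZT20 the genotypes were close. No synthesis gene passed the test (0 of 17, edgeR; 0 by DESeq2; 1, Pmvk, at an unadjusted p under 0.05), beside 2.09% of all tested genes called higher, 1.54% called lower and 3.63% called in either direction. Log2 fold changes ran from -0.33 for Pmvk (edgeR adjusted p = 0.328) to 0.13 for Hsd17b7, with a median of -0.05, and in 17 of 17 genes the groups overlapped. Of all tested genes at ZT20, 14.6% had an unadjusted p under 0.05 and 22.5% had groups that did not overlap. The 95% intervals left room for differences of some size, for example -0.67 to 0.74 for Hmgcs1, whose wild-type values at ZT20 were 1028.5, 819 and 535 CPM against 749.9, 897 and 794 in Rev-erbα-/-. For Ebp the interval was narrow, -0.24 to 0.08.

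The interaction, the log2 genotype effect at ZT8 minus that at ZT20, uses the mice of both comparisons. It was positive for 17 of 17 synthesis genes, with a median of 0.42, but 0 passed (edgeR; 0 by DESeq2; 6 at an unadjusted p under 0.05), beside 3.05% of all tested genes called higher, 2.83% called lower, 5.88% called in either direction and 19.6% at an unadjusted p under 0.05. Without the 2 acute-phase mice the median was 0.25, 15 of 17 values were above 0, those of Mvk and Fdft1 were -0.023 and -0.035, and the smallest adjusted p was 0.486 (edgeR). The smallest adjusted p was that of Acat2, the cytosolic thiolase, with an interaction of 0.54 (SE 0.21, edgeR adjusted p = 0.160). Sqle gave 0.68 (adjusted p = 0.162) and Tm7sf2 0.37 (edgeR adjusted p = 0.161). Without replicate 3 of wild-type at ZT20, 4 genes passed, namely Acat2 (0.69), Sqle (0.89), Lss (0.60) and Nsdhl (0.59), with adjusted p = 0.00259 to 0.0468 (edgeR). Without replicate 1 of wild-type at ZT8, 1 passed, Tm7sf2 (0.46, edgeR adjusted p = 0.0492). In these fits 843 of 14748 and 1260 of 14718 tested genes were called for the interaction, in either direction.

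**Figure D3:**
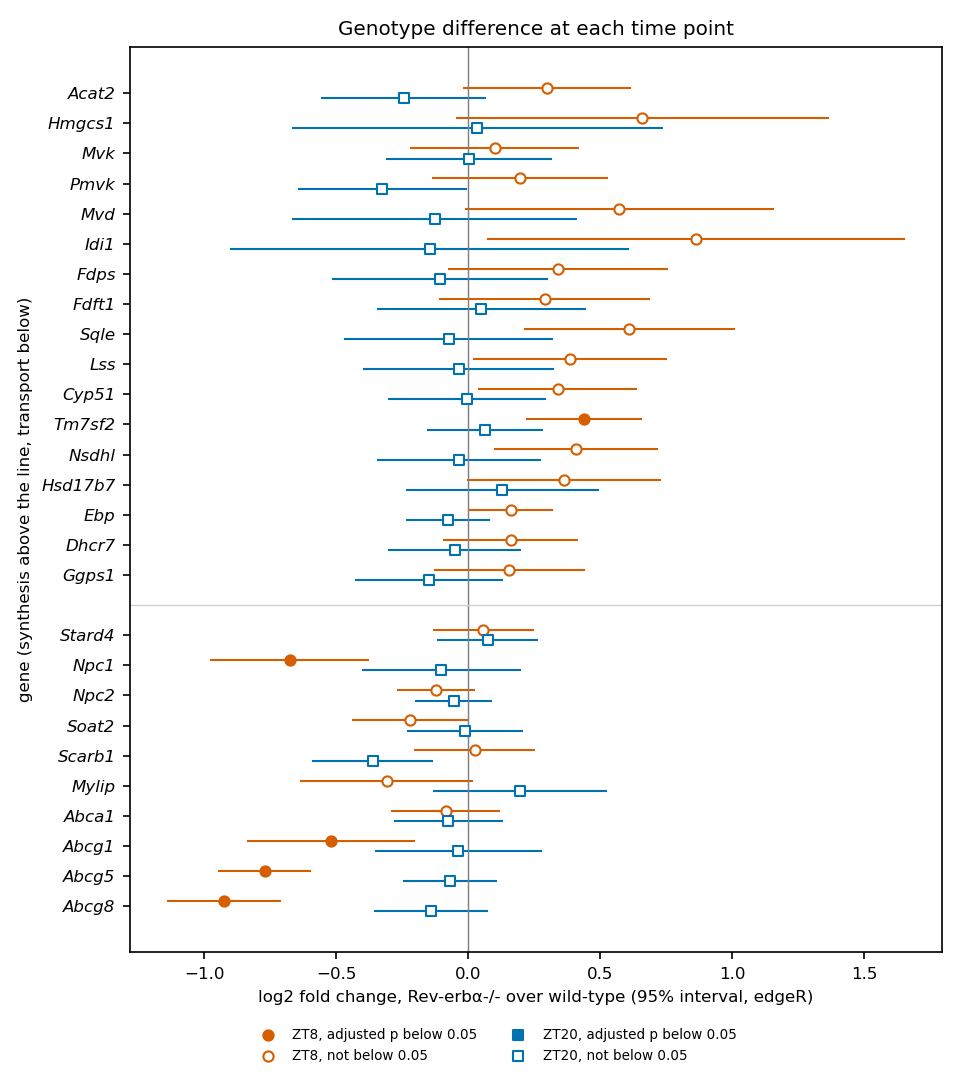
Log2 fold change of Rev-erbα-/- over wild-type for each gene at ZT8 (circles) and at ZT20 (squares), with 95% intervals from the edgeR fit and filled markers where the adjusted p was below 0.05. At ZT8 the 17 synthesis genes lie to the right of 0 and only Tm7sf2 is filled, Npc1, Abcg1, Abcg5 and Abcg8 are filled to the left, and no ZT20 marker is filled.

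Mice of the same group differed from each other across the whole synthesis pathway at once. A score for each mouse, the mean over the 17 genes of log2(CPM + 0.5) minus its mean over the 12 mice, was -0.38, -0.53 and -0.71 in wild-type at ZT8 and 0.02, -0.22 and -0.33 in Rev-erbα-/- at ZT8. At ZT20 the wild-type mice had 0.64, 0.42 and 0.08 and the knock-outs 0.23, 0.43 and 0.35. The ZT8 genotypes did not overlap on this score, the ZT20 genotypes did, and each mouse at ZT20 was above every mouse at ZT8. Within wild-type at ZT20, replicate 1 had the highest CPM of its group for 16 of the 17 genes and replicate 3 the lowest for 15. In wild-type at ZT8, replicate 1, the mouse with the low acute-phase sum of 6711 CPM, was highest for 15 of 17, and in Rev-erbα-/- at ZT8, replicate 1 was highest for 14. The part of the acute-phase difference in the synthesis values was not tested. Summed over the 17 genes, synthesis transcripts took 1435 to 1859 CPM in wild-type mice and 1907 to 2488 CPM in the knock-outs at ZT8, and 2443 to 3863 CPM and 2872 to 3368 CPM at ZT20.

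**Figure D4:**
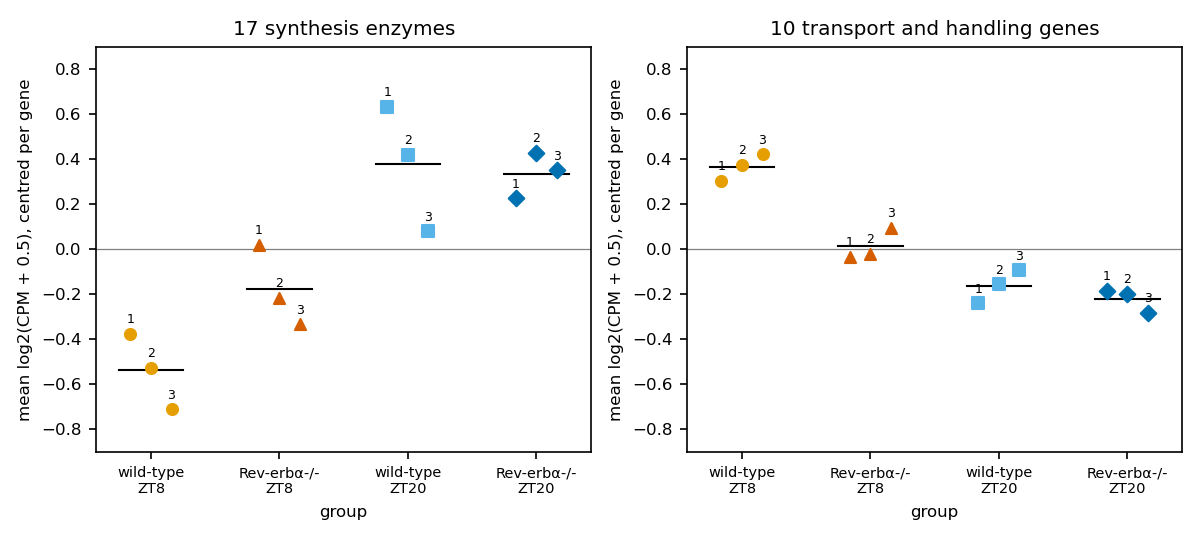
Mean centred log2(CPM + 0.5) of each mouse over the 17 synthesis genes and over the 10 transport genes, with the replicate number beside each point and dashes at group means. The scores of wild-type at ZT20 span 0.08 to 0.64 for synthesis, the widest group, and the 3 wild-type mice at ZT8 are the highest for transport.

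Those transport and handling genes that passed the test of genotypes at ZT8 were lower in the knock-outs. Transcripts of 4 of the 10, Abcg5, Abcg8, Npc1 and Abcg1, were lower in the knock-outs and 0 were higher, beside the 4.04% and 4.4% of all tested genes called lower and higher at that time. Their median log2 fold change was -0.26, with a range of -0.93 to 0.06, against 0.00 over all tested genes. Of the exporters, 3 of 4 fell, of the genes for intracellular transfer 1 of 3, and 0 of the 3 genes for uptake and esterification.

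Abcg5 and Abcg8 encode the subunits of the sterol transporter of the canalicular membrane. Abcg5 was at 134, 151 and 150.4 CPM in wild-type and at 75.0, 86.6 and 93.9 CPM in Rev-erbα-/- liver at ZT8. Abcg8 was at 214, 224 and 223 CPM in wild-type and at 110.4, 114 and 124 CPM in Rev-erbα-/-. For both genes every knock-out lay below every wild-type mouse. The log2 fold change was -0.77 for Abcg5 (SE 0.08, edgeR adjusted p = 3.66e-05), which is 1.71-fold lower. For Abcg8 it was -0.93 (SE 0.10, edgeR adjusted p = 4.33e-05), which is 1.90-fold lower. Without the 2 acute-phase mice the values were -0.66 (adjusted p = 0.00501) and -0.89 (edgeR adjusted p = 0.00415), and both genes stayed called in each of the 21 other settings.

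At ZT20 neither gene differed by the test. Abcg5 was at 48.2, 48.9 and 53.1 CPM in wild-type and at 46.7, 48.0 and 48.5 CPM in Rev-erbα-/- (log2 fold change -0.07, 95% interval -0.25 to 0.11, edgeR adjusted p = 0.793). Abcg8 was at 60.1, 62.4 and 82.6 CPM in wild-type and at 65.9, 60.4 and 59.7 CPM in Rev-erbα-/- (log2 fold change -0.14, 95% interval -0.36 to 0.08, edgeR adjusted p = 0.592). The genotypes overlapped for both genes. By the interaction test, the genotype effect was more negative at ZT8 than at ZT20, by -0.70 for Abcg5 (SE 0.12, edgeR adjusted p = 0.00203) and -0.78 for Abcg8 (SE 0.14, edgeR adjusted p = 0.00399). They were the 2 of 10 transport genes called lower for the interaction, beside the 2.83% of all tested genes, and 0 were called higher. The median interaction of the 10 genes was -0.35.

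The pair also had the largest time differences of the 10 genes. In wild-type liver, between ZT8 and ZT20 the log2 level of Abcg5 fell by 1.54 and that of Abcg8 fell by 1.69 (edgeR adjusted p = 6.26e-09 and 2.2e-08), which is 2.90-fold and 3.22-fold. Without the acute-phase mice the values were -1.43 and -1.65 (edgeR adjusted p = 1.35e-06 and 6.08e-06). In Rev-erbα-/- liver the same comparison gave falls of 0.84 and 0.90 (edgeR adjusted p = 1.19e-05 and 3e-05). Both time comparisons and the interaction use the same 12 mice and are not separate evidence. Per kilobase of exon, the ratio of Abcg8 to Abcg5 reads was 0.891 to 1.15 in the 12 mice, with a median of 0.987. The genes share 82 exon bases on opposite strands, 3.02% of the exon length of Abcg5, and the strand was ignored in counting.

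Abcg1 and Abca1 export cholesterol to lipoproteins. Abcg1 was low, at 8.04, 8.57 and 9.30 CPM in wild-type and 5.30, 5.72 and 7.00 CPM in Rev-erbα-/- at ZT8. The groups were separate, and its log2 fold change was -0.52 (SE 0.15, edgeR adjusted p = 0.0432), a call that was lost in 11 of 21 other settings, including the one without the acute-phase mice (-0.42, edgeR adjusted p = 0.428). Abcg1 is also expressed in macrophages, and the Kupffer cell marker sum was 272 to 434 CPM in wild-type and 240 to 301 CPM in Rev-erbα-/- at ZT8. Whether cell numbers had a part in the Abcg1 difference was not tested. Abca1 was at 211 to 282 CPM in both genotypes at ZT8 and at 255 to 298 CPM at ZT20, and it passed in no comparison (log2 genotype effects of -0.09 and -0.07).

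Leaving a single mouse out of the ZT8 groups ended the Abcg1 call in 4 of 6 cases, those of wild-type replicates 2 and 3 and of knock-out replicates 1 and 2 (edgeR adjusted p = 0.120, 0.138, 0.141 and 0.143). The same held for 4 of the 6 mice at ZT20, wild-type replicate 2 and knock-out replicates 1, 2 and 3. The ZT20 mice enter this comparison through the filter, the scaling and the shared spread. The interaction of Abcg1 was -0.48 (edgeR adjusted p = 0.216).

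Npc1 and Npc2 pass cholesterol out of late endosomes and lysosomes. Npc1 was at 207, 211 and 225 CPM in wild-type and at 111, 131 and 162 CPM in Rev-erbα-/- liver at ZT8. The groups were separate, with a log2 fold change of -0.68 (SE 0.14, edgeR adjusted p = 0.0101). Without the acute-phase mice it was -0.63 (edgeR adjusted p = 0.213). At ZT20 the genotypes overlapped, at 92.0 to 106 CPM and 75.1 to 107 CPM (log2 fold change -0.10, edgeR adjusted p = 0.831). The interaction was -0.57 and did not pass (edgeR adjusted p = 0.117, or 0.415 without the acute-phase mice), but did without replicate 3 of the knock-outs at ZT8 (-0.73, edgeR adjusted p = 0.0261) or replicate 3 of those at ZT20 (-0.71, edgeR adjusted p = 0.0250). From ZT8 to ZT20, Npc1 fell by 1.09 in wild-type (adjusted p = 8.65e-05, or 0.00946 without the acute-phase mice) and by 0.52 in Rev-erbα-/- (edgeR adjusted p = 0.0216). The second of these calls was lost without replicate 2 or replicate 3 of the knock-outs at ZT8 (adjusted p = 0.0533 and 0.0716) or replicate 3 of those at ZT20 (edgeR adjusted p = 0.0591).

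Npc2 and Stard4, a soluble sterol carrier, passed in no comparison. Npc2 was at 58.2 to 72.6 CPM and Stard4 at 194 to 250.5 CPM over all 12 mice. For Npc2 the genotypes were separate at ZT8, at 63.0 to 67.9 CPM in wild-type and 58.2 to 61.8 CPM in Rev-erbα-/-, with a log2 fold change of -0.12 (edgeR adjusted p = 0.302). In all, 5 of the 10 transport genes had separate genotypes at ZT8, beside the 25.6% of all tested genes.

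Scarb1, the receptor for selective uptake from HDL, is described by its ZT20 values first. It was at 210, 199 and 207 CPM in wild-type and at 169, 163 and 147 CPM in Rev-erbα-/- at ZT20. The groups were separate, but the log2 fold change of -0.36 did not pass (SE 0.11, adjusted p = 0.0883, edgeR; DESeq2 adjusted p = 0.0397). It was the 1 transport gene at an unadjusted p under 0.05 at ZT20. There 0 of 10 passed in edgeR and 1 in DESeq2, beside 3.63% and 706 of 14488 tested genes, in either direction. The median log2 fold change of the 10 genes at ZT20 was -0.06. Scarb1 also passed without replicate 1 or without replicate 3 of the knock-outs at ZT8 (edgeR adjusted p = 0.0478 and 0.0155). At ZT8 its values overlapped, at 183 to 203 CPM in wild-type and 167 to 239 CPM in Rev-erbα-/- (log2 fold change 0.02).

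Mylip (IDOL) marks the LDL receptor for degradation, and Soat2 esterifies cholesterol. Both fell from ZT8 to ZT20 in wild-type, Mylip by 0.59 (adjusted p = 0.0106) and Soat2 by 0.29 (edgeR adjusted p = 0.0491). They were among the 6 of 10 transport genes that fell in that comparison, with Abcg5, Abcg8, Npc1 and Abcg1 (by 0.43, edgeR adjusted p = 0.0400), beside 13.9% of all tested genes. In Rev-erbα-/- liver 3 of 10 fell, Abcg5, Abcg8 and Npc1, beside 8.67%, and 0 of 10 rose in either genotype. The median log2 fold change of the 10 over time was -0.36 in wild-type mice and -0.09 in the knock-outs. Without replicate 1 of wild-type at ZT20, the wild-type count was 3, with Mylip, Soat2 and Abcg1 lost. All tested genes called then numbered 3023 of 14747, in either direction. Without the acute-phase mice, the wild-type median was -0.31 and 7 of 10 values were below 0. Calls of Mylip, Soat2 and Abcg1 were not kept in that fit either. Genotype differences of Mylip and Soat2 did not pass at ZT8 (log2 fold changes of -0.31 and -0.22) or at ZT20 (0.20 and -0.01).

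**Figure D5:**
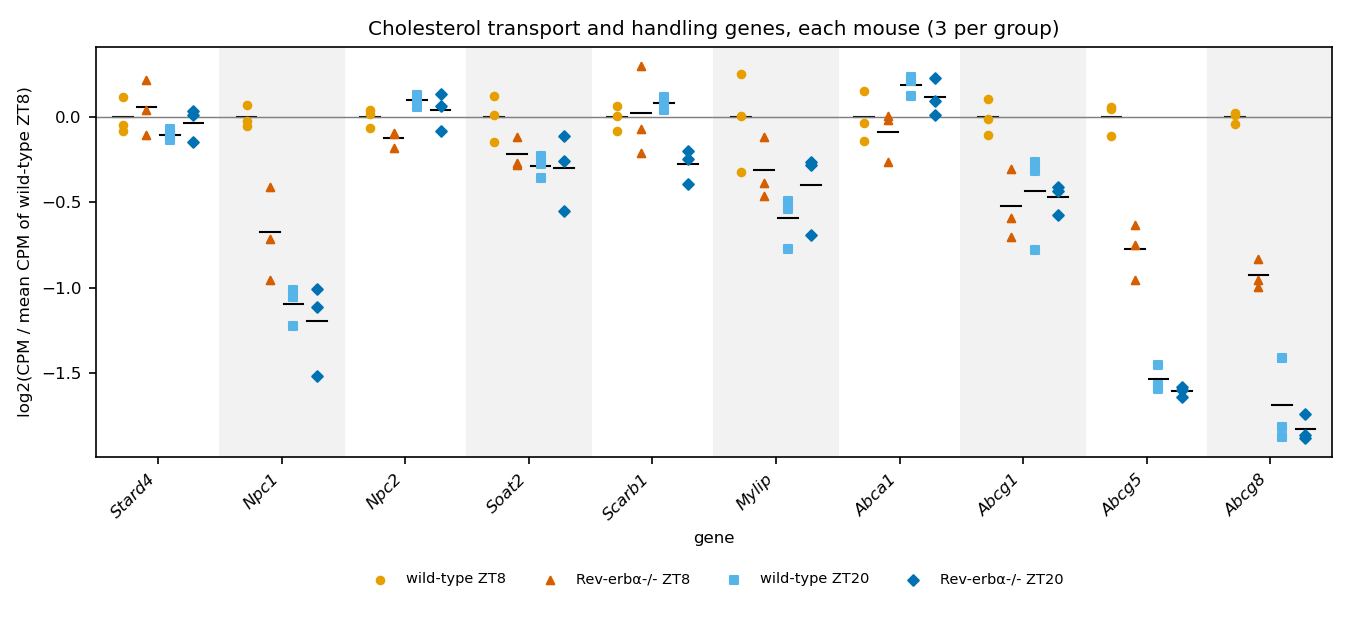
Each point is 1 mouse, plotted as log2 of its CPM over the mean CPM of wild-type at ZT8 for the 10 transport and handling genes, and dashes are group means on the same scale (3 mice per group). Abcg5 and Abcg8 show 3 levels, with wild-type at ZT8 highest, Rev-erbα-/- at ZT8 between, and both ZT20 groups lowest and overlapping.

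Of 30 further genes of sterol synthesis, uptake and control, 27 were tested. At ZT8, 2 were higher in Rev-erbα-/- liver, Insig2 and Lipa, and 4 were lower, Gramd1a and Nceh1 among them, beside 4.4% and 4.04% of all tested genes, while 0 of 27 passed at ZT20 (edgeR; 0 by DESeq2; 1 at an unadjusted p under 0.05). The median log2 fold change of the 27 was 0.03 at ZT8 and -0.03 at ZT20. Insig2, which retains the SREBP complex in the endoplasmic reticulum, was at 79.9, 65.4 and 55.2 CPM in wild-type and 190.0, 195 and 215 CPM in Rev-erbα-/- at ZT8. Its groups were far apart, and its log2 fold change was 1.58 (adjusted p = 3.95e-05), with an interaction of 1.68 (edgeR adjusted p = 0.000436). Lipa, the lysosomal acid lipase, gave 0.39 at ZT8 (adjusted p = 0.00588) and an interaction of 0.55 (edgeR adjusted p = 0.00703). Without the acute-phase mice, the interaction of Insig2 was 1.41 (adjusted p = 0.00539) and that of Lipa, 0.41, lost its call (edgeR adjusted p = 0.0954). Insig2 was still called at ZT8, at 1.32 (edgeR adjusted p = 0.00385), whereas Lipa, Gramd1a and Nceh1 were not (edgeR adjusted p = 0.272, 0.204 and 0.404).

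Differences of the named genes that were lower were smaller than that of Insig2. Nceh1, a cholesterol ester hydrolase, had a log2 fold change of -0.59 at ZT8 (edgeR adjusted p = 0.0142), and Gramd1a, a carrier of plasma membrane sterol, one of -0.40 (edgeR adjusted p = 0.00766). Over the times, 7 of the 27 rose and 8 fell in wild-type (13.8% and 13.9% of all tested genes), and 6 rose and 2 fell in the knock-outs (8.79% and 8.67%). Without the acute-phase mice, 1 wild-type mouse was left at ZT8, and calls over time are not counted for that fit. Srebf2, named here after its values were seen, was among those that rose in both genotypes, by 0.60 and 0.28 (edgeR adjusted p = 5.31e-05 and 0.0250).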

How the data were processed

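Per the labels and the methods of the study, the authors used TopHat to align reads of up to 75 bases to mm10, then HTSeq to count those with a unique position, by symbol of the gene (union mode, minimum quality 10, strand ignored). The deposited values are these raw counts, with no normalization, filter or pooling; versions of these tools and of the annotation are not given in the sources used here. Groups and replicate numbers came from the sample titles, and the labels do not say that the 3 samples of a group are separate animals, so p-values measure the spread between these samples. No pair of replicates agreed within counting noise.

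Counts of all 12 samples were filtered (filterByExpr), scaled with TMM and fitted with 4 group means in edgeR 4.0.16 (robust quasi-likelihood test) under R 4.3.3, with Benjamini-Hochberg adjustment within each of 5 contrasts and a threshold of 0.05. The biological coefficient of variation was 0.123. In counts simulated for the ZT8 comparison, 200 genes were changed 3-fold, and 14292 genes passed the filter. Of the 200, 174 were called by edgeR, as were 13 unchanged genes. All member differences between genotypes were smaller than 3-fold, so this recovery does not describe them. Exon lengths, overlaps and shared 75-base stretches came from GENCODE M21 on the same build, and promoter windows from RefSeq. All 27 members are named, those called between genotypes or for the interaction with every mouse's value; of the 30 further pathway genes, those called between genotypes, except some that are not reported here. Members, gene lists and tests were chosen with earlier results of these data known. Alternatives were DESeq2 1.42.0, its size factors, 3 other filters, a fit to 6 samples, a replicate block, a threshold of 0.01, each sample left out, and wild-type replicates 2 and 3 at ZT8 left out together. Intervals are 95% intervals of the fit.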

Additional observations from a re-analysis of the deposited data

Results flagged for a closer look

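For 2 of the 27 genes, the difference between genotypes itself differed between the time points by the interaction test over all tested genes. The log2 genotype effect at ZT8 minus that at ZT20 was -0.70 for Abcg5 (adjusted p = 0.00203, edgeR) and -0.78 for Abcg8 (adjusted p = 0.00399, edgeR). In each case 3 of 3 Rev-erbα-/- mice lay below 3 of 3 wild-type mice at ZT8, and the genotypes overlapped at ZT20. Without the 2 wild-type mice with high acute-phase transcripts, the interactions were -0.60 (adjusted p = 0.0308) and -0.75 (adjusted p = 0.0372, edgeR).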

How the results depend on the processing

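Over 21 alternative settings, 135 gene results (27 genes in 5 comparisons) gave 2808 comparisons with the reported values. Of these, 2691 kept their side of the threshold, 83 lost a call, 34 gained one and 0 called values reversed. Among the 2691, the sign changed in 65, all of values that were not called. Synthesis genes called between genotypes at ZT8 (1 as reported) numbered 3 with DESeq2, 2 in the fit to 6 samples, 0 at a threshold of 0.01, and 0 to 5 with 1 sample left out. All tested genes called in either direction numbered 1503, 769, 472 and 542 to 1811 in these settings. Synthesis genes called over time in Rev-erbα-/- (7) numbered 4 at 0.01 and 4 to 8 with 1 sample left out, beside 1231 and 1566 to 2847 of all tested genes. For the interaction (0), leaving out 1 sample gave 0 to 4, beside 493 to 1260 of all tested genes. Transport genes called at ZT20 (0) numbered 1 with DESeq2, 1 with no filter, 1 in the fit to 6 samples, and 0 to 1 with 1 sample left out. All tested genes called there numbered 706, 570, 614 and 239 to 656. Transport genes called at ZT8 (4) numbered 2 at 0.01, beside 472 of all tested genes. Over time in wild-type (6) they numbered 3 at 0.01 and 3 to 6 with 1 sample left out, beside 2343 and 2865 to 4195. The median of the transport genes was -0.27 for the interaction without both acute-phase mice and -0.40 to -0.28 with 1 sample left out, -0.43 to -0.29 for wild-type over time, and -0.085 to 0.0026 for genotype at ZT20. The cause of these shifts was not tested.

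Replicate numbers are shared between the groups, but same-numbered samples did not deviate together (mean correlation -0.02, from -0.10 to 0.10, and 3 of 12 samples correlated best with their own number). With a replicate block, 1 synthesis and 4 transport genes were called at ZT8, 0 and 0 at ZT20, 0 and 2 for the interaction, 13 and 5 over time in wild-type, and over time in Rev-erbα-/- 8 and 3. Of the 14488 tested genes, 1210, 479, 831, 3889 and 2399 were called in these comparisons, in the same order and in either direction. Abcg1, Idi1 and Ggps1 were the members with the fewest reads, 102 to 345 per library.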
